A study of Mus musculus with 2 samples.

Results

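Tumor cells that carry Il24 transcripts were a minority of the tumor cells in both libraries of treated EMT6 tumors. Il24-positive cells were selected on their measured counts of unique molecular identifiers (UMIs, each marking 1 captured transcript). A cell with at least 200 genes, under 20% mitochondrial UMIs and at least 2000 UMIs was taken as a tumor cell when Krt8 and Krt18 together had at least 2 UMIs, and Tyrobp with Ptprc, and Col5a2, each stayed under 0.02% of its UMIs. A tumor cell was Il24-positive when it held at least 2 Il24 UMIs and at least 50 per 1000000 of its UMIs (CPM). Of 23657 deposited cells, 13598 were tumor cells and 322 of these were Il24-positive, 58 of the Olaparib + LLY-283 library (OL) and 264 of the Combo library. The level of Il24 in these cells is fixed by this choice and is given as a description.

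For each library, tumors of 3 BALB/c mice had been combined before sequencing, so the treatment, the mice and the library cannot be told apart and no p-value can be given. EMT6 is a mouse mammary carcinoma line, and 200000 cells were implanted under the skin of each mouse. Both groups received LLY-283, an inhibitor of the arginine methyltransferase PRMT5, dosed at 50 mg/kg in cycles of 3 days on and 4 days off, and Olaparib, a PARP inhibitor, at 50 mg/kg. Only the Combo group also received anti-PD-1 antibody, 200 µg every 3 days, and no untreated tumor was analysed here.

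IL-24 is a secreted cytokine of the IL-10 superfamily and belongs to its IL-20 subfamily. It signals through receptors built from Il20ra or Il22ra1 with Il20rb, which pass the signal to JAK kinases and STAT3. It is known from keratinocytes and other epithelia at wounds, where it takes part in repair, and from studies of its growth-inhibiting action in cancer cells.

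The 2 libraries differed in depth. Tumor cells had a median of 9962 UMIs in the OL library and 48079 in the Combo library. Il24-positive cells were deeper than the average tumor cell, with medians of 16721.5 and 58481. Each was therefore paired with 1 tumor cell of the same library that held no Il24 UMI and was nearest in depth, and the matched Il24-free cells had medians of 16719.5 and 58467. The libraries shared 39 cell barcodes, carried by 0 and 2 of the Il24-positive cells. Keratin UMIs were required by the rule and cannot check the tumor label. UMIs of Epcam, an epithelial surface marker that the rule did not use, were found in 5 of 58 and 38 of 264, close to the 4 and 39 of the matched Il24-free cells.

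Il24 lies on the minus strand of chromosome 1 (ENSMUSG00000026420, chr1:130882074-130887454, mm10). Summed over all tumor cells it reached 3.12 CPM (95% counting interval 2.82 to 3.44) in the OL library and 22.9 (22.1 to 23.7) in the Combo library. Il24-positive cells made up 0.538% (exact binomial interval 0.409 to 0.696) and 9.34% (8.29 to 10.5) of tumor cells. Because 2 UMIs are required, the rule asks for more than 50 CPM in a shallow cell. The positive cells had a median Il24 level of 190 CPM in the OL library and 141 in the Combo library. They are therefore not the same class in both, and depth sets part of these shares. With every tumor cell thinned to 2000 UMIs, the share with an Il24 UMI was 0.496% and 3.39%, against 2.39% and 23.7% unthinned. These intervals cover counting error only, and the spread between mice is unknown.

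When the tumor cells of each library were divided by depth into 4 equal groups, the libraries also differed at like depth. In the deepest OL group, with a median of 19753 UMIs, 33 of 2693 cells were Il24-positive, or 1.23%, at 3.61 Il24 CPM. The shallowest Combo group, with a median of 21586 UMIs, held 34 positive cells of 707, or 4.81%, at 13.3 CPM. Within both libraries the positive share was lowest in the shallowest group and highest in the deepest, from 0.0371% to 1.23% and from 4.81% to 14.4%.

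**Figure D1:**
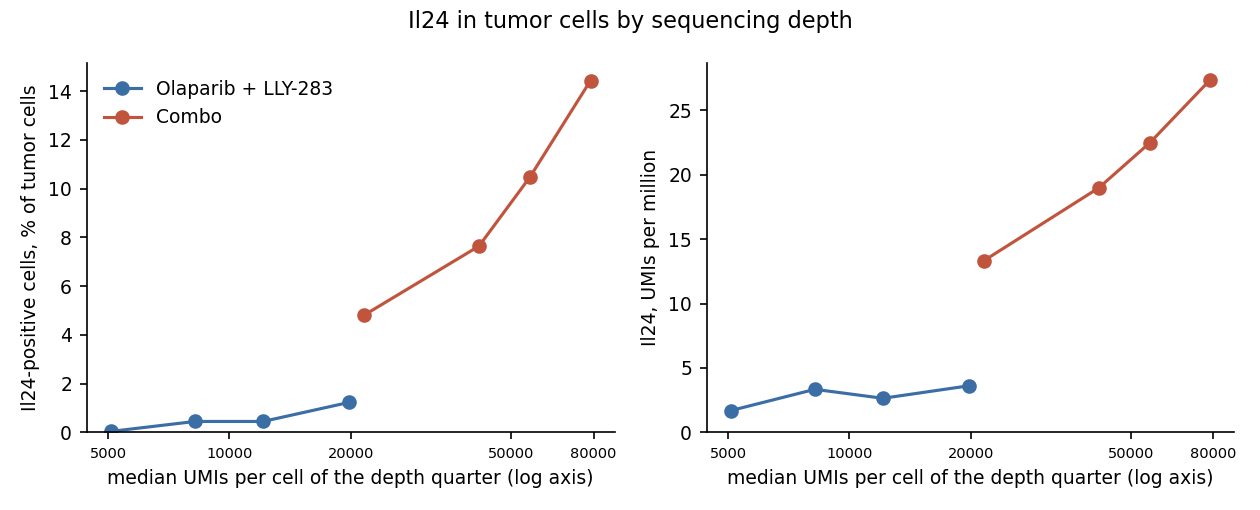
Share of tumor cells that were Il24-positive (left, percent) and summed Il24 level (right, CPM), each against the median UMIs per cell (log axis) of the 4 depth groups in each library. The Combo groups run from 4.81% to 14.4% and lie above all groups of the Olaparib + LLY-283 library, whose highest is 1.23%.

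The rule asks for Il24 UMIs, so a large share of them in the positive cells follows from the choice and is a description. The 10 tumor cells with most Il24 held 71 UMIs, or 17.75%, in the OL library and 359, or 11.05%, in the Combo library. The Il24-positive cells held 199 of 400 Il24 UMIs in the Olaparib + LLY-283 tumor cells, or 49.7%, with 0.874% of all UMIs. In the Combo library they held 2705 of 3249, or 83.3%, with 11.2% of all UMIs. A positive cell had from 2 to 14 Il24 UMIs with a median of 3 in the first library, and from 2 to 43 with a median of 7 in the second. At the threshold, the lowest positive cells stood at 59.5 and 50.0 CPM, and the highest cells left out with at least 2 UMIs at 42.3 and 49.96. In the OL library 26 of the 58 positive cells rested on exactly 2 UMIs.

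Few Il24 UMIs were found in cells of other types, and whether these came from free RNA, from joined cells or from the cells themselves was not tested. Immune cells, with Tyrobp and Ptprc at or over the limit and under 2 keratin UMIs, held an Il24 UMI in 1 of 606 cells (0.165%, median 3144.5 UMIs) in the OL library and in 12 of 1104 (1.09%, median 3249.5 UMIs) in the Combo library. Their summed Il24 was 0.470 and 1.71 CPM. Thinned to 1000 UMIs, 0.0376% and 0.269% of immune cells held an Il24 UMI, against 0.259% and 1.84% of tumor cells. Cells at or over the Col5a2 limit, with immune genes under their limit and under 2 keratin UMIs, held none in 159 cells and none in 23. At a limit of 3 counts of the total, these allow shares of up to 1.89% and 13.0%.

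The other IL-20 family cytokines and the receptor chains of IL-24 were near the limit of detection in the tumor cells. Il10rb, another receptor chain on the family list, was not, at 13.2 and 13.7 CPM. Il20 and Il22, ligands of the same family, had 0 UMIs in the tumor cells of both libraries, and Il19, whose gene lies 45.2 kb from Il24, had 9 and 27. Il20ra had 16 UMIs in each library, Il20rb 41 and 26, and Il22ra1 0 and 0, over all 10771 and 2827 tumor cells. Within the Il24-positive cells Il20ra had 0 and 1 UMIs and Il20rb 1 and 3. Among signal components, Jak1 stood at 149 and 155 and Stat3 at 50.9 and 61.8 CPM of tumor cells, and neither passed 1.5-fold between positive and matched free cells in either library. Socs3, a feedback inhibitor of STAT3 signaling, had log2 ratios of -0.40 and 0.34. Of the genes beside Il24, Mapkapk2, which encodes a kinase of the p38 pathway, had 46 UMIs in positive and 53 in matched free cells of the OL library, and 733 and 801 in the Combo library. Of 6 such neighbors compared in the Combo library 1 was at least 1.5-fold higher and 0 lower, against 4.24% and 7.44% of all genes. Their median log2 ratio was 0.37. The higher one was Ikbke, which encodes a kinase of innate immune signaling, with 86 and 44 UMIs, and in the OL library it had 3 and 0.

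Gsta1, Pthlh and Urah were named as markers of these cells from earlier results of the same data, so their values are a description. Pthlh was the marker with a ratio above 0, counting error included, in both libraries. Pthlh (ENSMUSG00000048776, chr6:147252101-147264183) encodes parathyroid hormone-related protein, a secreted factor known for releasing calcium from bone. In the Combo library, 1132 Pthlh UMIs were counted in positive cells and 213 in matched free cells, or 71.1 and 13.4 CPM, a log2 ratio of 2.41 (counting interval 2.20 to 2.63). A Pthlh UMI was found in 214 of 264 positive cells, or 81.1%, and in 100 of 264 matched cells, or 37.9%. The sums of the OL library were 41 and 20 UMIs, a log2 ratio of 1.02 (0.23 to 1.89), and 37.9% and 24.1% of cells held one. In immune cells the share was 0.990% and 1.72%.

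Gsta1 (ENSMUSG00000074183, chr9:78230656-78242684) encodes an alpha-class glutathione S-transferase that conjugates electrophiles, and its reads may be shared with the near-identical Gsta2. It had 340 UMIs in Combo positive cells against 41 in matched cells, 21.4 and 2.58 CPM, a log2 ratio of 3.04 (2.58 to 3.56). These UMIs were unevenly spread: 69 of 264 positive cells held any, 1 cell held 119, and 5 cells held 57.9% of them. Without the cell with 119 the log2 ratio was 2.42. Only 11 and 3 UMIs were counted in the OL library, a log2 ratio of 1.72 whose counting interval, -0.05 to 4.36, includes 0. Of the other glutathione S-transferases none passed 1.5-fold in both libraries.

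Urah (ENSMUSG00000025481, chr7:140835018-140837966) encodes 5-hydroxyisourate hydrolase of urate breakdown. It was the most widespread of these markers, with a UMI in 252 positive and 224 matched free cells of the Combo library. Its summed level was 98.1 and 51.2 CPM there, a log2 ratio of 0.94 (0.82 to 1.06). The OL library showed no difference beyond counting error, with 68 and 60 UMIs and a log2 ratio of 0.18 (-0.34 to 0.71). A Urah UMI occurred in 4.13% and 4.17% of immune cells. All of Gsta1, Pthlh and Urah were found together in 58 of 264 positive and 11 of 264 matched cells of the Combo library, and in 2 and 1 of 58 in the other. Gsta1 and Pthlh fell under the minimum of 100 UMIs in the OL library and were not among the genes compared in both.

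Across genes, 3099 had at least 100 UMIs over positive and matched free cells in each library, with the genes of the selection rule left out. Of these, 27 were at least 1.5-fold higher in Il24-positive cells in both libraries, or 0.871%, and 48 were at least 1.5-fold lower in both, or 1.55%. Taken alone, the OL library had 3.55% of 3099 genes higher and 4.49% lower by this fold, and the Combo library 4.24% and 7.44% of the 10136 genes with enough UMIs there. The median log2 ratio over the genes compared in both was -0.01 and -0.0010. All 27 and 48 genes kept their direction in both libraries under 5 other choices: 3 matched cells per positive cell, all Il24-free tumor cells, no doublets, a stricter Il24 limit and the mean of each cell's own level. A smaller number, 8 of the 27 and 22 of the 48, stayed past 1.5-fold in both libraries under all 5. All 5 choices reuse the positive cells that chose these genes, or a part of them. A kept direction was thus partly set in advance and is a description.

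**Figure D2:**
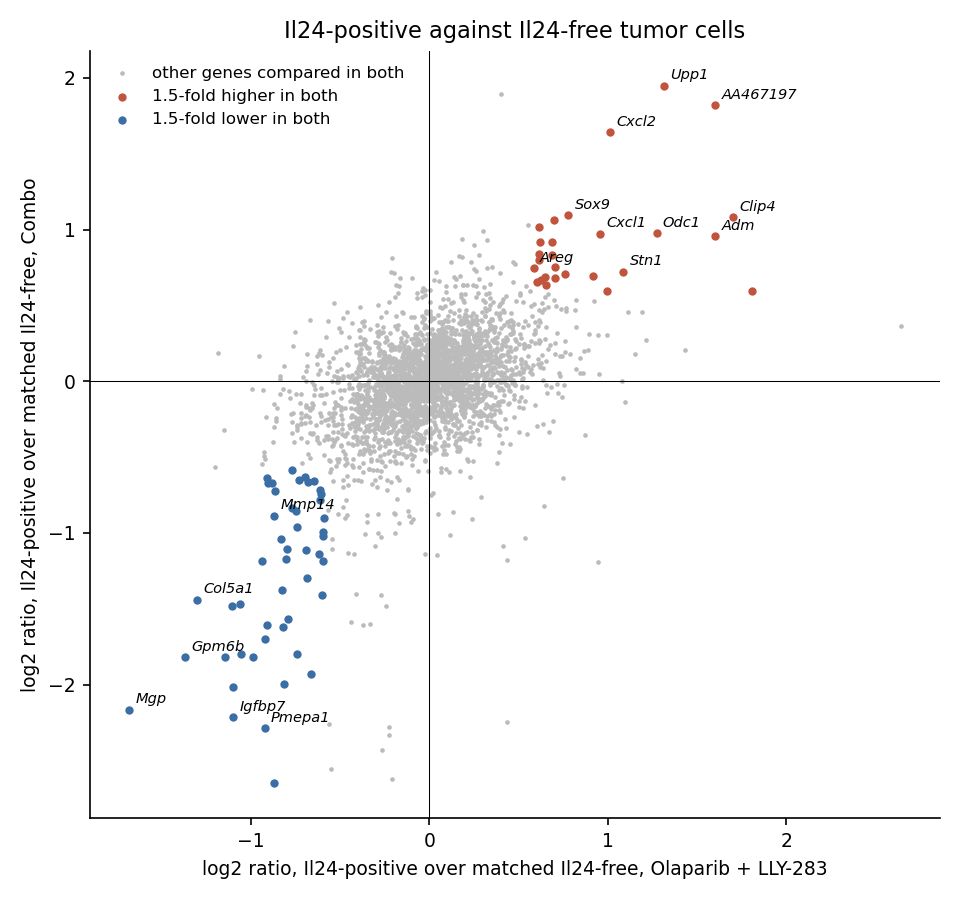
Log2 ratio of pooled CPM, Il24-positive over matched Il24-free tumor cells, in the Olaparib + LLY-283 library (horizontal) and the Combo library (vertical), 1 point per gene for the 3099 genes compared in both. Red points are the 27 genes at least 1.5-fold higher in both and blue points the 48 at least 1.5-fold lower. Upp1 and AA467197 lie highest among the red points, at 1.95 and 1.82 on the vertical axis, and Mgp lies farthest left among the blue points, at -1.68.

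The 8 higher genes that stayed past 1.5-fold throughout were AA467197, Adm, Clip4, Cxcl1, Glul, Odc1, Stn1 and Upp1. Upp1, the uridine phosphorylase that breaks uridine down to uracil, stood at 134 CPM in positive and 53.5 in matched free cells of the OL library, and at 123 and 31.9 in the Combo library. Its log2 ratios were 1.31 (0.88 to 1.78) and 1.95 (1.81 to 2.09), and a Upp1 UMI was found in 254 positive and 178 matched cells of the Combo library. AA467197, the mouse gene of a small mitochondrial protein that is known to be induced by inflammatory signals, reached 84.8 against 27.6 and 122 against 34.6 CPM, log2 ratios of 1.60 and 1.82. In the OL library 29 positive and 22 matched cells held AA467197, and 5 cells held 45.3% of its UMIs in positive cells. Positive cells had the higher level of both genes in each library. Clip4, which encodes a CAP-Gly domain protein of microtubules, had log2 ratios of 1.70 and 1.08, and Stn1, a subunit of the CST complex at telomeres, 1.09 and 0.72.

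Odc1, ornithine decarboxylase and the first enzyme of polyamine synthesis, was at 334 against 138 and at 354 against 180 CPM, log2 ratios of 1.27 and 0.98. Glul, glutamine synthetase, had log2 ratios of 0.61 and 1.02. Gchfr, which regulates GTP cyclohydrolase, had 0.70 and 0.75 but passed 1.5-fold under only 2 of the 5 other choices of cells.

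Adm, the vasodilator peptide adrenomedullin, was at 626 CPM in positive and 206 in matched free cells of the OL library, and at 327 and 168 in the Combo library, log2 ratios of 1.60 (1.39 to 1.82) and 0.96 (0.89 to 1.03). In the positive cells of the OL library 37.75% of the Adm UMIs lay in 5 cells, 1 of them with 85. Cxcl1, a chemokine that attracts neutrophils, was at 224 and 115, and at 336 and 171, with log2 ratios of 0.96 and 0.97. Cxcl2, its close relative, had 172 UMIs in positive and 85 in matched free cells of the OL library and 5726 and 1831 in the Combo library, log2 ratios of 1.01 and 1.64. Against all Il24-free tumor cells the Cxcl2 value of the first library was 0.24, so its call there rests on the matched cells. Areg, amphiregulin, a ligand of the EGF receptor, had log2 ratios of 0.58 and 0.74, the first of which is at the 1.5-fold limit.

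Markers of neutrophils and macrophages, which also express such chemokines, were read in the same cells. The 12 neutrophil markers summed to 150 CPM in positive and 202 in matched free cells of the OL library and to 300 and 211 in the Combo library. Of 8 neutrophil markers compared in the Combo library, 4 were at least 1.5-fold higher in positive cells and 1 lower, against 4.24% and 7.44% of all genes, with a median log2 ratio of 0.59, and in the OL library 0 of 2 passed. Below the minimum in both libraries, and so not among the markers compared, the receptor Csf3r had 0 and 0, and 33 and 30 UMIs. Its values do not stand for the markers that were compared. The 16 macrophage and monocyte markers summed to 288 and 196, and to 299 and 276. The first of these gaps lay in Cd74, with 140 and 22 UMIs, which 21 positive and 15 matched cells held. The part of these cells in the chemokine values was not tested.

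Sox9, a transcription factor of epithelial progenitors, was also higher in both libraries, at 126 against 73.1 and at 125 against 58.4 CPM, log2 ratios of 0.78 and 1.09. With a stricter Il24 limit its ratio in the OL library was 0.11. Tiparp, an ADP-ribosyltransferase induced by the aryl hydrocarbon receptor, had 0.91 and 0.69, and Plk3, a polo-like kinase of stress responses, 0.69 and 0.92. Vma21, an assembly factor of the vacuolar proton pump, had 0.69 and 0.84, Mrpl38, of the mitochondrial ribosome, 0.70 and 1.06, and Ftsj3, an RNA methyltransferase of ribosome assembly, 0.76 and 0.70.

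Promoter windows from RefSeq (GRCm38.p6, 250 bases before to 50 after a start) were read for motifs of AP-1, a factor of growth and stress signals. Windows were found for 13 of the 15 leading higher genes, 11 of the 15 leading lower genes and for Gsta1, Pthlh and Urah, and not for Il24, Sox9, Mrpl38, Mgp, Ccn4, Cthrc1 and Pmepa1. The letters TGACTCA, or TGAGTCA on the other strand, stood in the windows of Upp1 and AA467197, 2 of 13, of Col6a1, 1 of 11, and in none of the windows of Gsta1, Pthlh or Urah. Of all 27025 genes with a window, 5.95% held them. The motif and its surroundings are shown for those genes in the direction of the gene, with the motif in capitals, because Upp1 and AA467197 lead the higher genes.
AA467197 (plus strand, chr2:122637803-122637831): cgcacgtgagtTGACTCAgtgcgacgcgg
Upp1 (plus strand, chr11:9117952-9117980): gactgaatgaaTGAGTCAtttcccctact
Col6a1 (minus strand, chr10:76726117-76726145): tgctgatgctgTGACTCActcagctttga

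The motif began 73 bases before the start in AA467197, 45 in Upp1 and 90 in Col6a1. The other motifs were searched on both strands in the same windows, and a match is a description of letters only. The hypoxia response core, ACGTG, was found in 6 of 13 higher and 6 of 11 lower genes, against 21.8% of all genes. The antioxidant response element TGACNNNGC was in 3 of 13 and 2 of 11, against 14.0%, and the TEAD motif GGAATG in 1 of 13 and 1 of 11, against 16.6%. The STAT motif TTCNNNGAA was in 1 of 13 higher genes, 0 of 11 lower genes and in Gsta1 and Urah, against 9.55%.

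The genes lower in Il24-positive cells were led by matrix proteins and their binding partners. Mgp, matrix Gla protein, which inhibits calcification, was at 101 CPM in positive and 325 in matched free cells of the OL library and at 20.8 and 93.7 in the Combo library, log2 ratios of -1.68 (-2.00 to -1.38) and -2.17 (-2.34 to -1.99). In the matched free cells of the OL library 65.9% of the Mgp UMIs lay in 5 cells, 1 of them with 167. Igfbp7, a secreted binding protein of insulin-like growth factors, was at 203 and 437, and at 87.4 and 405, log2 ratios of -1.10 and -2.21. Cthrc1, a secreted protein of collagen-rich tissue, had -1.10 and -2.02, and Ogn, the small proteoglycan osteoglycin, -0.82 and -1.62. All 4 of these stayed at least 1.5-fold lower under the 5 other choices of cells.

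Collagens and surface proteins followed the same direction. Col5a1 had log2 ratios of -1.30 and -1.44, Col6a1 -0.91 and -1.61, and Col6a2 -1.06 and -1.80. Mmp14, the membrane-bound matrix metalloproteinase that cleaves collagen, had -0.87 and -0.89, and Itgb5, an integrin subunit for vitronectin, -1.11 and -1.48. Gpm6b, a membrane proteolipid, had -1.37 and -1.82, and Rnd3, a small GTPase that loosens actin stress fibers, -0.92 and -1.70. The signaling proteins Bmp4, Ccn4, a target of WNT signaling, and Pmepa1, an inhibitor of TGF-beta signaling, had log2 ratios of -1.06 and -1.47, -1.14 and -1.82, and -0.92 and -2.29. Ass1, argininosuccinate synthase of arginine synthesis, had -0.99 and -1.82.

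**Figure D3:**
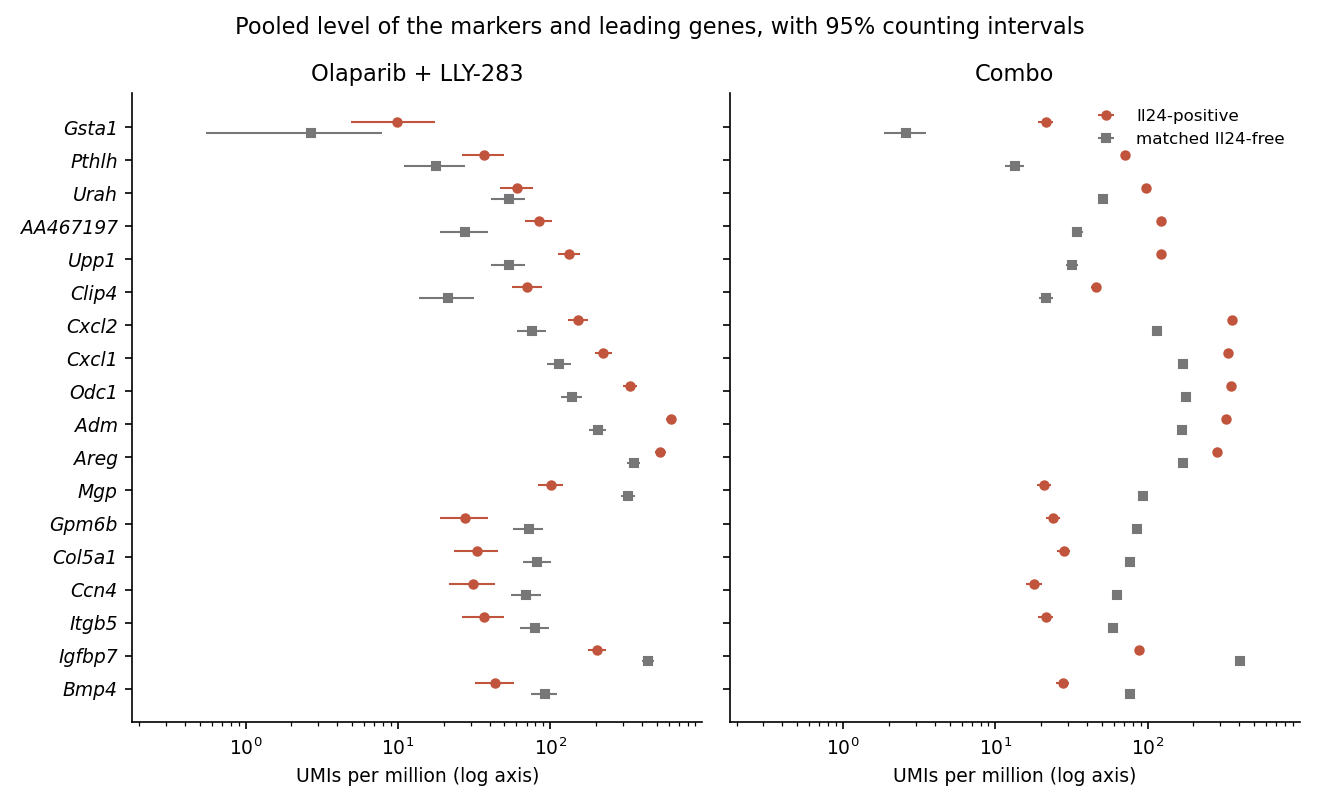
Pooled level in CPM (log axis) of Gsta1, Pthlh, Urah, 8 higher and 7 lower genes in Il24-positive cells (red circles) and matched Il24-free cells (gray squares), for the Olaparib + LLY-283 library (left, 58 and 58 cells) and the Combo library (right, 264 and 264 cells). Bars are 95% counting intervals. For Adm the levels are 626 and 206 on the left and 327 and 168 on the right, and for Mgp they are 101 and 325 on the left and 20.8 and 93.7 on the right.

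Of the mesenchymal genes, 7 of 16 compared were lower in both libraries and 0 higher, against 1.55% and 0.871% of all genes, with median log2 ratios of -0.43 and -0.72. The 7 were Fn1, Sparc, Col1a1, Col1a2, Col3a1, Col5a1 and Col6a1, all of extracellular matrix. Vim, the intermediate filament of mesenchymal cells, differed little, with log2 ratios of 0.14 and 0.06, and so did S100a4, with 0.07 and 0.34. The transcription factor Twist1 had -0.23 and -0.33. Col5a2 was held low in all cells by the selection rule, which also limits collagen-rich cells in both groups. The 12 fibroblast markers, of which Col3a1 is 1, summed to 439 CPM in positive and 654 in matched free cells of the OL library and to 287 and 729 in the Combo library. Of those compared in the Combo library, 0 were higher and 3 of 5 lower, against 4.24% and 7.44% of all genes, with a median of -0.95. In the OL library 0 were higher and 1 of 2 lower, against 3.55% and 4.49%. Below the minimum in both libraries, Thy1 had 5 and 1, and 7 and 14 UMIs, and Dpt 23 and 0, and 16 and 23. The part of fibroblast RNA in the matrix values was not tested.

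Keratins were higher in the positive cells, although both groups had to hold at least 2 UMIs of them. Krt8 was at 1335 CPM in positive and 721 in matched free cells of the OL library and at 1253 and 714 in the Combo library. Krt18 was at 160 and 90.1, and at 170 and 58.9. These genes belong to the rule and are given as values only. Of the 3 other epithelial genes compared in both libraries none passed 1.5-fold in both.

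Among gene groups linked to tumor states, 3 of 5 compared genes of the Sox9, Areg, Bdnf and Adm group were higher in both libraries. Over all genes this share was 0.871%, and the medians of the 5 were 0.58 and 0.74. Bdnf, a neurotrophin, had 0.40 and -0.0034, and Hmga2, a chromatin protein, -0.05 and -0.02. Of the Mgp, Omd and Ogn group 3 of 4 were lower in both, Mgp, Ogn and Col8a1, against 1.55% of all genes. The medians of the 4 were -0.76 and -1.36. These lists were drawn with results of these data known, and their counts are not independent evidence of their direction.

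Ligands of the EGF receptor were mostly higher in the Combo library. Of 6 compared there, Areg, Hbegf, Tgfa and Btc passed 1.5-fold upward, against 4.24% of all genes, and none passed it downward. Tgfa, transforming growth factor alpha, had 136 UMIs in positive and 31 in matched free cells of that library and 5 and 4 in the other. Hbegf, a heparin-binding ligand, had log2 ratios of 0.47 and 0.79. Of the 2 compared in both libraries 1, Areg, was higher in both, against 0.871% of all genes. The receptor Egfr had 7 and 14 UMIs, and 122 and 161.

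Of 8 inflammatory cytokine and chemokine genes compared in both libraries, Cxcl1 and Cxcl2 were higher in both and 0 lower. Over all genes the shares were 0.871% and 1.55%. The medians of the 8 were 0.58 and 0.44. Cxcl3, another chemokine of this kind, was under the minimum in the first library, with 34 and 9 UMIs, and had 637 and 206 in the Combo library, log2 ratios of 1.86 and 1.62. Il33, an alarmin of epithelial cells, passed 1.5-fold in the Combo library only, at 268 against 72.0 CPM and a log2 ratio of 1.89. In the OL library its log2 ratio was 0.40 (-0.10 to 0.92), an interval that also holds values past 1.5-fold. There 5 positive cells held 55.1% of the Il33 UMIs of positive cells. Ccl2, a chemokine that attracts monocytes, was lower in Combo positive cells, with 527 and 1541 UMIs.

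Of 24 hypoxia and glycolysis genes compared in both libraries only Adm was at least 1.5-fold higher in both, against 0.871% of all genes. In the OL library 7 of 24 passed this fold upward and 0 downward, against 3.55% and 4.49% of all genes. In the Combo library 2 of 26 were higher and 1 lower, against 4.24% and 7.44%. Their medians were 0.33 and 0.22. Slc2a1, the glucose transporter GLUT1, had log2 ratios of 0.59 and 0.39, and Hk2, a hexokinase, 1.22 and 0.27. Hilpda, a lipid droplet protein known to be induced by low oxygen, is not on the list and was named after its values were seen. It had 1.81 and 0.60.

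Of the TGF-beta and YAP output genes compared in the Combo library, 11 of 20 were lower and 0 higher, against 7.44% and 4.24% of all genes, with Tgfb2 at 84 UMIs in positive and 422 in matched free cells and Inhba, which encodes an activin subunit, at 887 and 1882. Only 12 of them had enough UMIs in the OL library, where 1 was lower and 1 higher, against 4.49% and 3.55% of all genes. The difference between the libraries was not tested. Id3, a target of BMP signaling, was the 1 gene lower in both, with log2 ratios of -0.70 and -0.63.

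Genes of the G2 and M phases, which act in mitosis, had medians of -0.40 and -0.31 over the 17 compared in both libraries, and 0 of them passed 1.5-fold in both. In the OL library 6 of 17 were lower, against 4.49% of all genes, Cdk1 among them with -0.74. In the Combo library 2 of 31 were lower, against 7.44%. S phase genes had medians of -0.11 and 0.09. Type I interferon-stimulated genes had medians of -0.03 and -0.34 over 4 genes, and in the Combo library 6 of 27 were lower and 1 higher, against 7.44% and 4.24% of all genes, with Ifit1 at 258 against 697 UMIs. None of the 14 MHC class I and peptide loading genes passed 1.5-fold in either direction in either library.

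Over all genes compared in both libraries, 0.871% were higher and 1.55% lower in both. Of NRF2 targets, the genes of the antioxidant response, 0 of 22 were higher and 1 lower in both libraries, Cat, which encodes catalase. AP-1 and immediate early genes gave 0 of 18 in both directions, and Fosl1, an AP-1 subunit of invasive cells, had log2 ratios of 0.32 and 0.75. ERK output genes gave 0 of 10, with medians of 0.42 and 0.41. Of the p53 targets 1 of 10 was higher in both, the polo-like kinase Plk2, and ATF4 stress genes gave 0 of 15. Wound-edge epithelium genes gave 0 higher and 2 lower of 10, Mmp14 and Plat, the tissue plasminogen activator. In the Combo library alone, 5 of 15 wound-edge genes were higher and 3 lower, with a median log2 ratio of 0.46. Over all genes the Combo shares were 4.24% and 7.44%. In the OL library 1 of 10 was higher and 2 lower, against 3.55% and 4.49%. Of the PTHrP axis and bone-related genes 1 of 3 was lower in both, Bmp4. The lists of PRMT5, PARP and repair genes (6 compared), of the Klk10, Cst6 and Sfn group (3), of urate and purine breakdown (2), of drug efflux pumps (1) and of the IL-20 family (3) held 0 past 1.5-fold in both. In the Combo library 2 of 5 genes of the Klk10 group were higher and 1 lower. Klk8 of this group, under the minimum in the OL library, had 632 and 73 UMIs, and 38 and 6 in the OL library. Of 4 efflux pumps 1 was higher in the Combo library, Abcb1a with 157 and 40 UMIs, and 1 lower. Markers of T and NK cells summed to 3.57 CPM in positive and 0.892 in matched free cells of the OL library and to 4.15 and 3.58 in the Combo library, and those of endothelium to 14.3 and 8.03, and to 9.67 and 7.86. Skeletal muscle markers summed to 24.1 and 18.7, and to 24.2 and 17.7, and red blood cell markers to 13.4 and 15.2, and to 9.36 and 15.0.

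**Figure D4:**
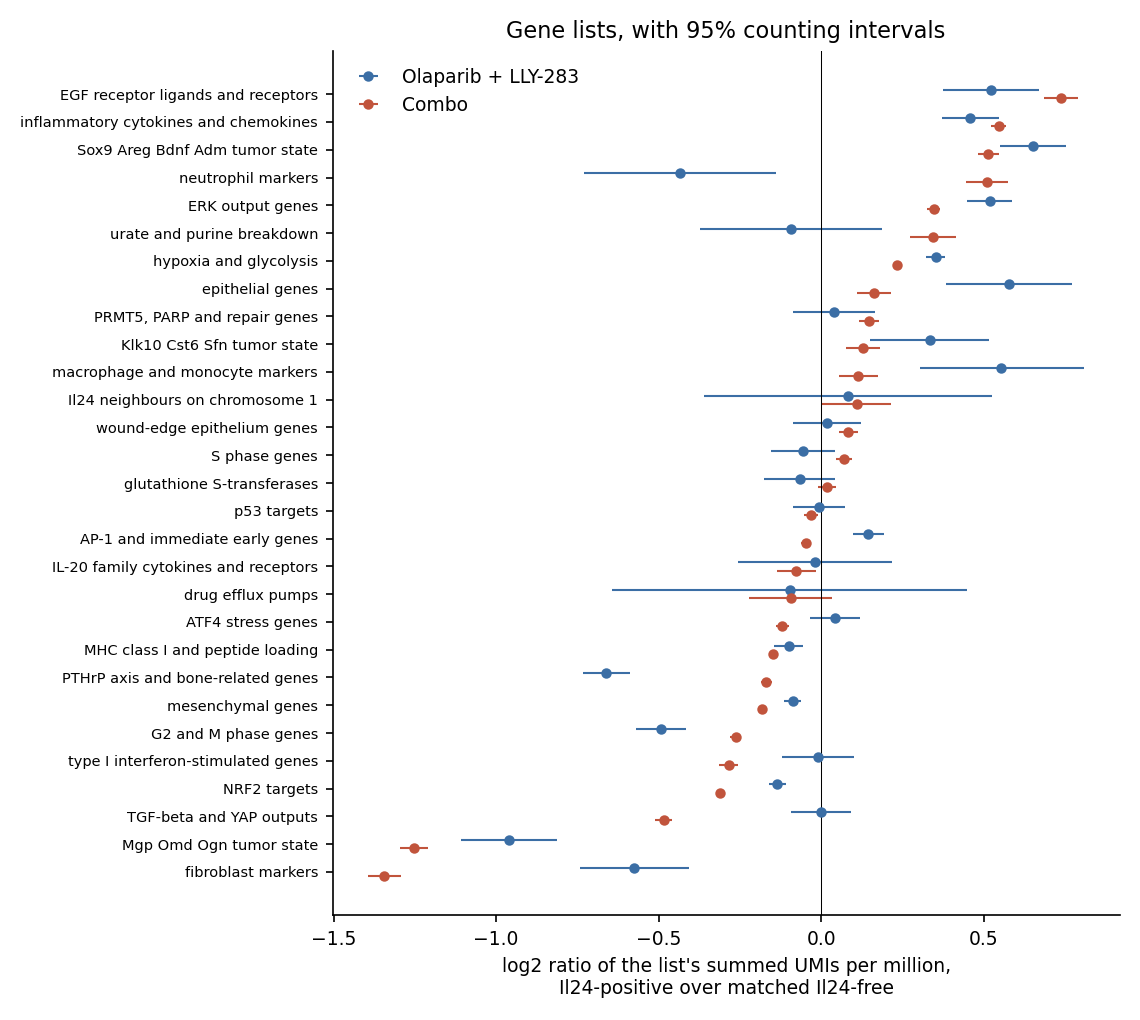
Log2 ratio of the summed CPM of each gene list, Il24-positive over matched Il24-free tumor cells, with 95% counting intervals, for the Olaparib + LLY-283 library (blue) and the Combo library (red). Lists with at least 100 UMIs in the first library are shown. In the Combo library fibroblast markers lie lowest, at 287 against 729 CPM, and EGF receptor ligands and receptors highest, at 486 against 292. Summed levels weigh abundant genes most.

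The deeper Combo library also held genes too rare for the comparison in both. Its 25 highest genes ran from a log2 ratio of 1.82 to 5.04, and their naming followed their values. Upp1, AA467197 and Il33 are among them and were also compared in both libraries. In the OL library, which did not choose them, 22 of the 25 had more UMIs in positive than in matched free cells, 0 had fewer, 1 had the same number and 2 had none. Some rest on few UMIs, such as Cd200 with 1 and 0. Only 15 had at least 10 UMIs there, and 15 of these went upward, 12 past 1.5-fold. Of 9308 genes with as many UMIs, 47.7% and 9.21% did. This minimum sums positive and matched free cells. A rare gene can pass it through the positive cells alone, as Nppb did with 11 and 0 UMIs. The counts of the 15 are therefore a description, and the 9308 genes are not a like comparison. Of all 10136 genes compared in the Combo library 42.6% had more UMIs in the positive cells of the other. The 25 lowest Combo genes had fewer UMIs in the positive cells of that library in 22 of 25, against 51.9% of all genes.

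Klk8, a secreted serine protease of epithelium, had 632 UMIs in positive and 73 in matched free cells of the Combo library, held by 207 and 53 cells, and 38 and 6 in the other. Serpinb9b, a serine protease inhibitor, had 1096 and 168, and 32 and 2 UMIs, and Itgb7, an integrin subunit known from lymphocytes, 1014 and 164, and 46 and 8. Edn2, the vasoconstrictor peptide endothelin-2, had 180 and 5, and 34 and 1 UMIs. Only 33 positive Combo cells held Edn2, 1 of them with 66 UMIs, and in the other library 23 of 34 UMIs lay in 1 of 5 cells. Nppb, which encodes the natriuretic peptide BNP, had 142 and 13 UMIs in the Combo library and 11 and 0 in the other, the 11 in 9 cells. Sh2d5, an SH2-domain adaptor, had 172 and 29, and 13 and 0.

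Serpinb5, the serpin maspin of epithelial cells, had 220 UMIs in positive and 7 in matched free cells of the Combo library and 0 in both groups of the other. At that depth a difference in the OL library was not detectable. Etv1, a transcription factor downstream of ERK, had 678 and 179, and 10 and 4 UMIs. Among the lowest Combo genes, Acta2, smooth muscle actin, was at 258 against 1393 CPM, a log2 ratio of -2.43, while in the other library it was at 1310 against 1575, with -0.26. Pdgfrb, a receptor of platelet-derived growth factor, had 128 and 723, and 19 and 54 UMIs, log2 ratios of -2.49 and -1.48.

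Gene levels were also read by the cells' own Il24 level, which is the value the rule used. The leading genes were chosen in these same cells, and the share over all genes was not computed, so the counts are a description. In the Combo library, 13 of the 15 leading higher genes had a higher level in the positive cells at 200 CPM or more than in those below, and 12 of the 15 leading lower genes a lower one. The exceptions were Cxcl1, at 336 in both, Ftsj3, Bmp4, Mmp14 and Mgp. In the OL library the counts were 9 of 15 and 9 of 15. The 405 tumor cells with some Il24 below the rule, the 182 positive cells under 200 CPM and the 82 at 200 CPM or more had Pthlh at 27.3, 58.7 and 100.3 CPM, against 13.4 in matched free cells. AA467197 stood at 34.6, 53.5, 107 and 157 CPM over the same 4 classes, and Cxcl2 at 115, 184, 325 and 442. Gsta1 was at 2.58, 2.97, 13.6 and 39.7. Urah, at 51.2, 60.5, 96.5 and 102, differed little between the last pair. Mgp went the other way, at 93.7, 64.0, 20.6 and 21.6 CPM.

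The same classes of the OL library held 58, 199, 30 and 28 cells. Adm stood at 206, 326, 391 and 1059 CPM, and AA467197 at 27.6, 42.0, 75.7 and 101. Pthlh was at 17.8, 23.6, 27.5 and 53.2. Gsta1 showed no such order, with 2.68, 4.84, 13.8 and 2.53, the last from 1 UMI. The 28 cells with most Il24 had a median of 10689 UMIs and the 30 below them 21783.5. G2 and M phase genes summed to 2922, 3104, 2592 and 1130 CPM over these classes, and to 3437, 3393, 2986 and 2577 in the Combo library.

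**Figure D5:**
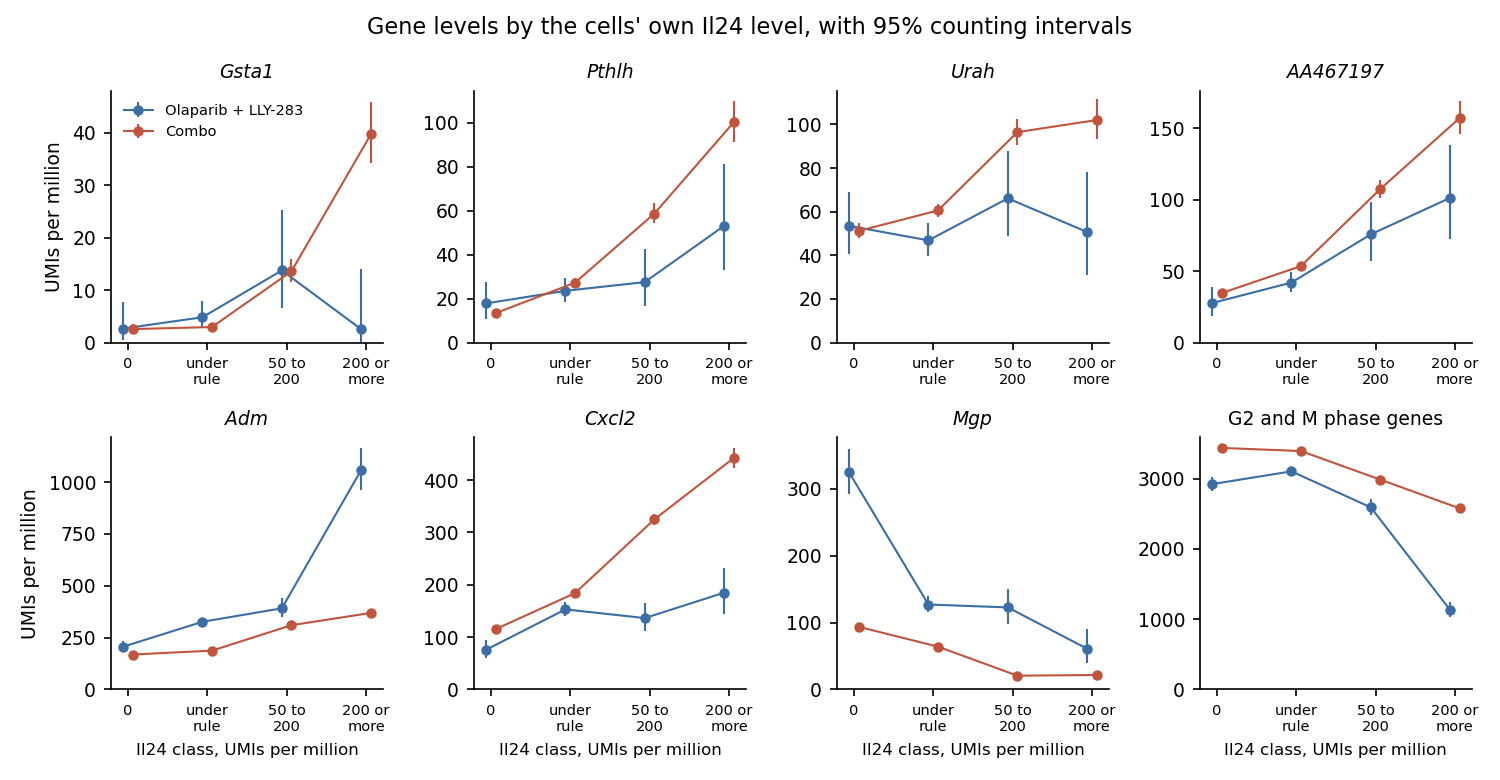
Level in CPM of 7 genes and of the G2 and M phase list in tumor cells classed by their own Il24 level (0 and matched, some but under the rule, 50 to under 200 CPM, 200 CPM or more), with 95% counting intervals, for the Olaparib + LLY-283 library (blue) and the Combo library (red). Pthlh in the Combo library goes from 13.4 to 100.3 and Mgp from 93.7 to 21.6 over the classes. The classes hold 58, 199, 30 and 28 cells in the first library and 264, 405, 182 and 82 in the second.

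Il24-positive cells lay near each other in expression space. Tumor cells of each library were placed in 30 principal components of 2000 variable genes, without the genes of the rule, and the 30 nearest neighbors of each cell were read. In the Combo library 42.1% of the neighbors of positive cells were themselves positive, against 4.95% of the neighbors of matched free cells and 9.34% of all tumor cells. Of 264 positive cells 261 had at least 1 positive neighbor, and 118 of 264 matched cells did. The shares of the OL library were 3.45% and 0.460%, against 0.538% of all tumor cells, and 34 of 58 positive and 8 of 58 matched cells had a positive neighbor. The neighbors of the 2 groups were of like depth, with medians of 60637 and 56871 UMIs in the Combo library and 14478 and 14521 in the other. Because 3 tumors were pooled, it cannot be told apart whether positive neighbors came from 1 mouse or from several.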

How the data were processed

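The authors deposited a matrix of raw UMI counts per gene and cell for each of the 2 libraries, without normalization. The reference was mm10. The file headers give Cell Ranger 6.1.2, and the study's methods name another version. The submitters' processing notes list bcl2fastq 5.0.1 and Seurat 4.1.0. All 55450 gene identifiers are in GENCODE M21.

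Members and gene lists were chosen with earlier results of these data known. Cells were filtered and classed by the rule given in the report. UMIs were summed over cells and divided by the summed total, as UMIs per 1000000 (CPM). A log2 ratio adds 0.5 UMIs to each sum, and a gene was compared where positive and matched free cells held at least 100 UMIs together. With 1 library per group there is no test. Intervals are exact at 95% (Poisson for levels, Clopper-Pearson for shares, conditional binomial for ratios) and cover counting error only. Genes named are the markers, the 15 leading genes in each direction, ranked by the library in which the ratio is closer to 0, and up to 6 members per list and direction that passed in both libraries. The 33 lists cover pathways, tumor states and other cell types. Other genes were named after their values were seen. Thinned shares are expected values of sampling without replacement. Doublets were kept. Scrublet, run by scanpy 1.11.5 on each library, called 0 cells at its automatic threshold, so the alternative without doublets left out the cells with the highest scores, up to an expected 0.8% per 1000 cells. That call took 7 of 58 and 11 of 264 positive cells. Scripts ran on Python 3.11.15 with scipy 1.17.1, matplotlib 3.10.9, numpy 2.4.6, scikit-learn 1.9.0 and pandas 2.3.3. The comparison was tested on simulated data. These were pooled counts drawn without spread between cells, so genes held mostly by a few cells, such as Gsta1, were not covered. Depth ranged from 2000 to 76740 UMIs per tumor cell in the Olaparib + LLY-283 library and from 2032 to 158769 in the Combo library.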

Additional observations from a re-analysis of the deposited data

Results flagged for a closer look

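Of the genes compared in both libraries, 3 passed 1.5-fold in opposite directions, and the difference between the libraries was not tested. Egln3, a prolyl hydroxylase of the oxygen response, had a log2 ratio of 0.94 in the Olaparib + LLY-283 library (OL), against -1.19 in the Combo library. Fam107b had 0.64 and -0.82, and Hspb2, a small heat shock protein, 0.75 and -0.64.

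Il24 was also found in Combo cells outside the tumor set, above the level of immune cells in that library. Keratin-bearing cells with immune or Col5a2 UMIs at or over the limit held it at 14.5 CPM, in 32 of 413 cells. Keratin-bearing cells under 2000 UMIs held it at 18.5 CPM, from 3 UMIs with a counting interval of 3.82 to 54.2. Cells with 20% or more mitochondrial UMIs held it at 7.18 CPM, from 10 UMIs in 1586 cells.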

How the results depend on the processing

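The genes called in both libraries numbered 27 higher and 48 lower. They were 199 and 467 with all Il24-free tumor cells, 565 and 859 with a minimum of 1 UMI per gene, 10 and 21 with 300 UMIs, 4 and 9 at 2-fold, and 17 and 30 with Il24 at 3 UMIs and 100 CPM, which left 1697 genes to compare. Of the 27 and 48, 14 and 34 remained with all free cells. With 3 matched cells per positive cell 17 of 27 and 28 of 48 remained, and without doublets 14 and 36, so single calls depend on which cells were matched. The Il24-positive share became 0.708% with 5 keratin UMIs in the OL library, and 0.269% and 6.23% in the 2 libraries with the stricter Il24 limit. Il24 in that first library was 3.51 CPM with 5 keratin UMIs. The thinned share was 1.18% and 6.97% at 5000 UMIs and 2.39% and 23.7% unthinned. With 10 neighbors the positive share among neighbors of positive cells was 6.21% and 47.9%, and of matched cells 0.172% and 4.32%, and with 15 components 40.0% for Combo positive cells. Leaving out cells with shared barcodes and leaving out the Combo cell with most Gsta1, both chosen after seeing the data, gave 27 and 48 and 27 and 47 genes. Of 166 alternative values, 142 stayed within counting error or 1.5 times the count. These were 89 of 90 marker ratios, some of which the setting could not change, and 53 of 76 other values. Of the 32 gene counts among the latter, 22 stayed. A reversal was looked for only in marker ratios past 1.5-fold, and 0 reversed. No paired analysis was possible because each group has 1 library. In the OL library 58 cells with a median of 16721.5 UMIs limit genes under about 100 UMIs.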
